A study of Mus musculus with 6 samples.

Results

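The genes described here are *Gabra2*, *Gabra3*, *Gabra4*, *Gabra5*, *Gabrb1*, *Gabrb2*, and *Gabrd*, which encode alpha2, alpha3, alpha4, alpha5, beta1, beta2, and delta subunits of the GABA-A receptor. They were chosen by gene symbol as members of a gene family and are 7 of the 46078 genes counted. RNA was sequenced from 3 infarcts and 3 contralateral cortices of wild-type C57BL/6J mice, labelled as 3 months of age, at 7 weeks after stroke. The study used male mice, in which stroke was induced by permanent occlusion of the distal middle cerebral artery followed by hypoxia, and the infarct and the corresponding region of the other hemisphere were dissected by eye. All mice had a stroke, so the contralateral cortex is the intact side of an injured brain and not tissue of an uninjured mouse. The labels name no drug for these libraries and do not say that each library came from a separate mouse, so *p* values measure only the spread between these libraries. The question was which of these subunits differed between the regions, and whether they differed from each other in how much.

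GABA-A receptors are chloride channels opened by GABA and are the main fast inhibitory receptors of the cortex. Each channel is built from several subunits. The alpha subunit shapes the response to GABA and to benzodiazepines, the beta subunit takes part in forming the GABA binding site and in holding the channel at the membrane, and a gamma or delta subunit completes the channel. Channels with a gamma subunit are typical of synapses, whereas channels with delta lie outside synapses and respond to ambient GABA. Neurons carry most of these receptors, and astrocytes and oligodendrocyte precursors also express some subunits.

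Positions are those of GENCODE release M21 on GRCm38. *Gabra2*, *Gabra4*, and *Gabrb1* lie in one cluster on chromosome 5, at chr5:70957597-71095849, chr5:71569749-71658308, and chr5:71658113-72149037. *Gabra4* and *Gabrb1* are arranged head to head on opposite strands and overlap at their first exons, which covers 0.76% of the exon bases of *Gabra4* and 0.33% of those of *Gabrb1*. The others lie apart from this cluster, *Gabra3* at chrX:72432681-72656848, *Gabra5* at chr7:57407672-57510059, *Gabrb2* at chr11:42419757-42629028, and *Gabrd* at chr4:155384980-155398112. Promoter sequence from RefSeq on GRCm38.p6, running from 250 bases before to 50 bases after the start site, was at hand for 6 of the 7 genes. The windows of 4 genes are shown, *Gabra4* and *Gabrb1* because they are neighbors whose transcripts changed by different amounts, and *Gabra5* and *Gabrb2* because they had the smallest and the largest fold change. Capitals mark matches on either strand to TATAAA (the TATA box), GGGCGG (the GC box), and CCAAT.
*Gabra4* (chr5:71658259-71658558, minus strand): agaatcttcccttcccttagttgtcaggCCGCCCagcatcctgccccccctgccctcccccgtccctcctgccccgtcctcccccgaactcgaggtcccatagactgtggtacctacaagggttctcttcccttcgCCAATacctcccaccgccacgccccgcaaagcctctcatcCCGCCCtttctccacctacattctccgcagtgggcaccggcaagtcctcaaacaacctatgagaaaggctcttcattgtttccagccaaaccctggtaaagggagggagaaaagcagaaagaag
*Gabrb1* (chr5:71657671-71657970, plus strand): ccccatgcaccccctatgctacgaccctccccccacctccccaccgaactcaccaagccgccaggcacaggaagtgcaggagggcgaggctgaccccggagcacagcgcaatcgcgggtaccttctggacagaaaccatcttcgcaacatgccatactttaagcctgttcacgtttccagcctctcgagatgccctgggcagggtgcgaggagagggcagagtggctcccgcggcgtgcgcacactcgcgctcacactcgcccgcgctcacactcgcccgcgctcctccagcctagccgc
*Gabra5* (chr7:57510010-57510309, minus strand): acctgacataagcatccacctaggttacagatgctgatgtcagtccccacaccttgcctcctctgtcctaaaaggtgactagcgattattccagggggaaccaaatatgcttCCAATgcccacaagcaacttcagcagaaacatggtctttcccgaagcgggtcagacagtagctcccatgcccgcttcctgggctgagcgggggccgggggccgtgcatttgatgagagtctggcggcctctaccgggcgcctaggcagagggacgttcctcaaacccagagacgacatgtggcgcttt
*Gabrb2* (chr11:42420190-42420489, plus strand): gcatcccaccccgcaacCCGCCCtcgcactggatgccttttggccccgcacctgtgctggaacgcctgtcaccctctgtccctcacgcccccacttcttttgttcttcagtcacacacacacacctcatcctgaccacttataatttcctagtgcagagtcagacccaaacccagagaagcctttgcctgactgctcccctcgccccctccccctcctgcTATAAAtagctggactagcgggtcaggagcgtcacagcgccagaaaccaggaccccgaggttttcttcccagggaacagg
The neighbors *Gabra4* and *Gabrb1* shared none of these matches, as the *Gabrb1* window held 0 of them and the *Gabra4* window held 2 matches to GGGCGG and 1 to CCAAT. CG dinucleotides numbered 12 in the *Gabra4* window, 25 in that of *Gabrb1*, 13 in that of *Gabra5*, and 11 in that of *Gabrb2*, against a median of 7.0 over 32851 promoters of the same length. *Gabra3*, whose window is not shown, had 0 CG dinucleotides. TATAAA was present in 2 of the 6 windows (*Gabra3* and *Gabrb2*) and in 13.62% of all promoters, GGGCGG in 3 and in 35.66%, and CCAAT in 4 and in 37.41%. These matches describe the letters in each window and not binding.

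Reads assigned to genes numbered 12146959 to 13427057 per infarct library and 11943570 to 19933962 per contralateral library. Levels are given as counts per 1000000 after TMM scaling (CPM), and genes were called different at an adjusted *p* below 0.05 with a log2 fold change beyond 1 in edgeR's quasi-likelihood test over 15554 genes. Of the 7 subunit genes, 6 were downregulated in infarcts and 0 were upregulated, where 20.9% of all tested genes were downregulated and 25.7% were upregulated. The same 6 genes had every infarct library below every contralateral library, a pattern that 34.7% of all tested genes showed. The median log2 fold change was -3.10 for the 7 genes and 0.03 for all tested genes. In bulk tissue, fewer cells of a type and less RNA per cell cannot be told apart. The 14 genes of a pan-neuronal list were all downregulated as well, with a median log2 fold change of -2.92, so the subunits are also set against these genes below. In the same libraries 7 of 8 microglia and macrophage markers were upregulated in infarcts.

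**Figure D1:**
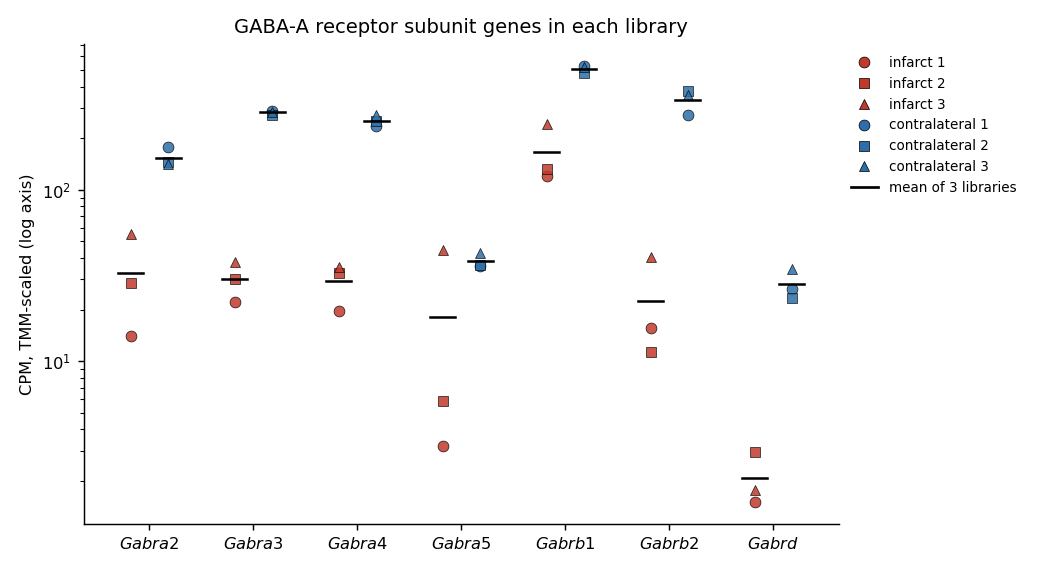
Level of each subunit gene in each of the 6 libraries, in TMM-scaled CPM on a log axis. Points are libraries (red, infarct and blue, contralateral, with the marker shape giving the replicate number) and black lines are means of 3. *Gabra5* in infarct 3, at 44.8 CPM, is the only infarct point that reaches the contralateral points of its gene.

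Among the alpha subunits, *Gabra3* and *Gabra4* behaved most alike. *Gabra3*, an alpha subunit of synaptic receptors, measured 22.1, 30.0, and 37.8 CPM in infarcts 1, 2, and 3 and 290, 273, and 285 CPM in contralateral cortices 1, 2, and 3. *Gabra4*, the alpha subunit that commonly partners delta outside synapses, measured 19.7, 32.7, and 35.6 CPM in infarcts, against 234, 251, and 272 CPM in contralateral cortices. The regions lay far apart for both genes, and the infarct mean was 10.6% of the contralateral mean for *Gabra3* and 11.6% for *Gabra4*. The log2 fold change was -3.24 ± 0.21 (SE) for *Gabra3* (adjusted *p* = 1.01e-06, edgeR, n = 3 per region) and -3.10 ± 0.23 for *Gabra4* (adjusted *p* = 2.43e-06, edgeR). Their count ratio within a library barely moved, with a mean log2 ratio of *Gabra3* to *Gabra4* of 0.04 ± 0.15 (SD) in infarcts and 0.17 ± 0.13 in contralateral cortices, and the libraries overlapped. 

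*Gabra2*, an alpha subunit found at synapses and at the axon initial segment, had 14.0, 28.6, and 55.0 CPM in infarcts against 177, 145, and 142 CPM in contralateral cortices. Every infarct was lower, but the infarcts spanned a wide range, the highest being 3.92 times the lowest where the contralateral libraries spanned 1.25 times. The log2 fold change was -2.24 ± 0.45 (SE, adjusted *p* = 0.00373, edgeR, n = 3 per region). Without infarct 3 it was -2.84.

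*Gabra5* was the member that was not called. This alpha subunit is best known from extrasynaptic receptors of hippocampal pyramidal neurons. It measured 3.19 and 5.87 CPM in infarcts 1 and 2 but 44.8 CPM in infarct 3, and 36.1, 36.4, and 42.7 CPM in contralateral cortices, so infarct 3 lay above every contralateral library. The raw counts behind these levels were 40, 80, and 657 in infarcts and 692, 559, and 463 in contralateral cortices. The log2 fold change was -1.09 ± 0.96 (SE), with a 95% interval from -3.49 to 1.31 (adjusted *p* = 0.362, edgeR). With infarct 3 left out, it was -3.06 (adjusted *p* = 1.25e-06, edgeR, n = 2 against 3), and all 7 members were then called downregulated. A short gene on the other strand, *Gm9962*, shares 4.98% of the exon bases of *Gabra5* and had at most 9 counts in a library.

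Infarct 3 had the highest level among infarcts for 6 of the 7 subunit genes and for 14 of 14 pan-neuronal genes. Relative to the mean log level of infarcts 1 and 2, it was higher by 9.35-fold for *Gabra5*, 2.96-fold for *Gabrb2*, 2.70-fold for *Gabra2*, 1.91-fold for *Gabrb1*, 1.46-fold for *Gabra3*, and 1.39-fold for *Gabra4*, and it stood at 0.865-fold for *Gabrd*. The pan-neuronal list stood at 2.14-fold and the median tested gene at 1.01-fold. The excess of *Gabra5* was thus larger than that of the other 6 members, and 99.92% of all tested genes had a smaller one. Over 6 hippocampal markers infarct 3 stood at 1.97-fold, against 2.14-fold for the pan-neuronal list. Among the infarcts, 4 of the 6 were highest in infarct 3, namely *Lct*, *Neurod1*, *Prox1*, and *Wipf3*. *Lct* measured 0.159, 0.0734, and 1.16 CPM in infarcts, against 0.836 to 1.04 CPM in contralateral cortices, with few counts. *Neurod1* measured 0.876, 1.25, and 3.34 CPM in infarcts, against 20.7 to 23.2 CPM in contralateral cortices. *Wipf3* measured 4.22, 12.1, and 83.1 CPM in infarcts, against 44.8 to 57.8 CPM in contralateral cortices, whereas the dentate marker *Prox1* measured 34.9, 42.4, and 51.4 CPM in infarcts, against 27.4 to 35.0 CPM in contralateral cortices, and *Dsp* was lowest in infarct 3 (1.99, 2.35, and 1.09 CPM in infarcts). The summed level of the 6 markers was 415 to 602 CPM in infarcts, against 239 to 258 CPM in contralateral cortices, with *Zbtb20* making up most of it, and none of the 6 was at 0 in any library. Between regions, 1 of the 6 was called lower and 2 were called higher. The part of hippocampal tissue in the *Gabra5* level of infarct 3 was not tested.

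Over all 6 libraries, the beta subunits differed most from each other. *Gabrb1*, which encodes beta1, measured 120, 133, and 242 CPM in infarcts, against 529, 479, and 518 CPM in contralateral cortices. *Gabrb2*, which encodes the beta2 subunit of the most widespread cortical receptor type, measured 15.6, 11.3, and 40.3 CPM in infarcts, against 272, 377, and 359 CPM in contralateral cortices. Neither gene's regions overlapped, and infarcts retained 32.4% of the contralateral mean for *Gabrb1* but 6.68% for *Gabrb2*. The log2 fold change was -1.63 ± 0.26 (SE) for *Gabrb1* (adjusted *p* = 0.000429, edgeR, n = 3 per region), with a 95% interval from -2.21 to -1.04. For *Gabrb2* it was -3.90 ± 0.50 (adjusted *p* = 0.000365, edgeR), with a 95% interval from -5.08 to -2.72, which does not meet that of *Gabrb1*. Without infarct 3 the *Gabrb2* value was -4.63.

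*Gabrd*, which encodes the delta subunit of extrasynaptic receptors, was the least abundant member. It measured 1.51, 2.94, and 1.77 CPM in infarcts, against 26.5, 23.3, and 34.6 CPM in contralateral cortices, with no overlap. Its log2 fold change was -3.75 ± 0.28 (SE, adjusted *p* = 3.04e-06, edgeR), and the infarct mean was 7.37% of the contralateral mean. It was the one member whose highest infarct was infarct 2 and not infarct 3.

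**Figure D2:**
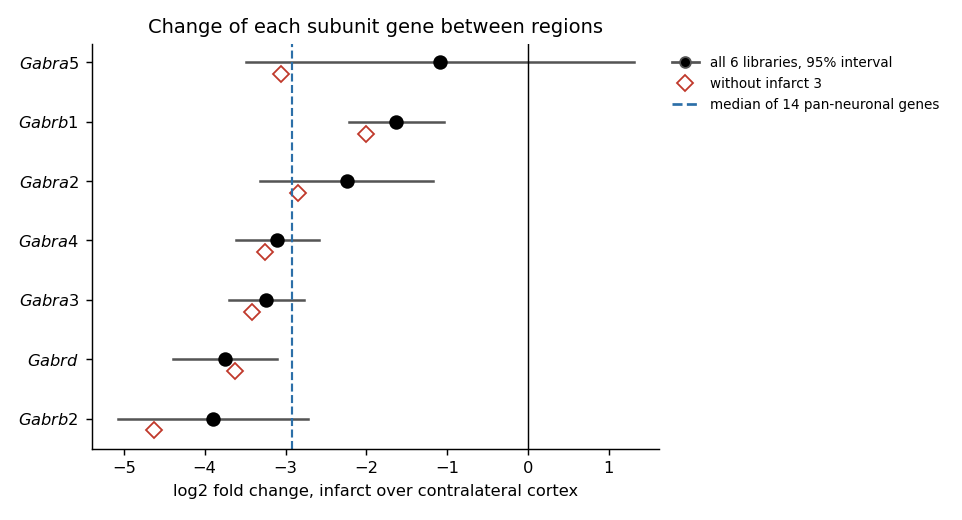
Log2 fold change of each subunit gene, infarct over contralateral cortex, in edgeR. Black points with lines are the estimates from all 6 libraries with 95% intervals, open diamonds are the estimates without infarct 3, and the dashed line is the median of the pan-neuronal list (-2.92). *Gabra5* moves from -1.09 to -3.06 when infarct 3 is left out, and *Gabrb1* lies to the right of the dashed line in both.

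Compared per kilobase of merged exons, the contralateral order of mean levels was *Gabra3* (72.0 CPM per kb), *Gabrb2* (52.8), *Gabra4* (41.5), *Gabrb1* (36.8), *Gabra2* (20.2), *Gabra5* (12.9), and *Gabrd* (9.79). *Gabrb2* and *Gabra4* overlapped in this order, while each other pair of neighbors was apart in these 3 libraries, *Gabra4* and *Gabrb1* as well as *Gabra5* and *Gabrd* only narrowly. In infarcts the order was *Gabrb1* (11.9 CPM per kb), *Gabra3* (7.64), *Gabra5* (6.04), *Gabra4* (4.82), *Gabra2* (4.26), *Gabrb2* (3.52), and *Gabrd* (0.722), and all neighbors overlapped except *Gabrb2* and *Gabrd*. *Gabra5* ran from 1.07 CPM per kb in infarct 1 to 15.1 in infarct 3, so its place in the infarct order rested on infarct 3. *Gabrb2* thus stood in the upper part of the contralateral order and near the bottom of the infarct order, and *Gabrb1* stood in the middle of the contralateral order and first in the infarct order.

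Expressed as a share of the 7 genes per length, *Gabrb1* made up 37.0, 30.8, and 28.1% in infarcts and 16.1, 14.2, and 14.6% in contralateral cortices. *Gabrb2* made up 10.5, 5.71, and 10.2% in infarcts and 18.0, 24.3, and 22.0% in contralateral cortices. The mean share of *Gabrb1* was therefore 32.0% ± 4.55 (SD, n = 3) in infarcts and 15.0% ± 0.993 in contralateral cortices, and that of *Gabrb2* was 8.80% ± 2.68 and 21.4% ± 3.20. Shares of 4 of the 7 genes did not overlap between regions, those of *Gabrb1* being higher in infarcts and those of *Gabra3*, *Gabrb2*, and *Gabrd* lower. *Gabra3* averaged 21.4% ± 5.09 in infarcts and 29.3% ± 1.54 in contralateral cortices, and *Gabrd* averaged 2.17% ± 1.15 and 3.97% ± 0.694. The regions of *Gabrd* nearly met, at 3.28% in infarct 2 and 3.32% in contralateral 2. Shares of *Gabra2* (10.5% and 8.25%), *Gabra4* (13.5% and 16.8%), and *Gabra5* (11.7% and 5.25%) overlapped, and the infarct mean of *Gabra5* without infarct 3 was 5.46%. An exact two-sided permutation test of 3 against 3 libraries cannot give a *p* below 0.1, the value it gave for each of these 4 genes. Shares are parts of the same sum, so a rise of any gene lowers the others. How often shares in other sets of genes do not overlap was not computed. The shares cover these 7 genes only, and other subunit genes that these tissues express are not in the sum.

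**Figure D3:**
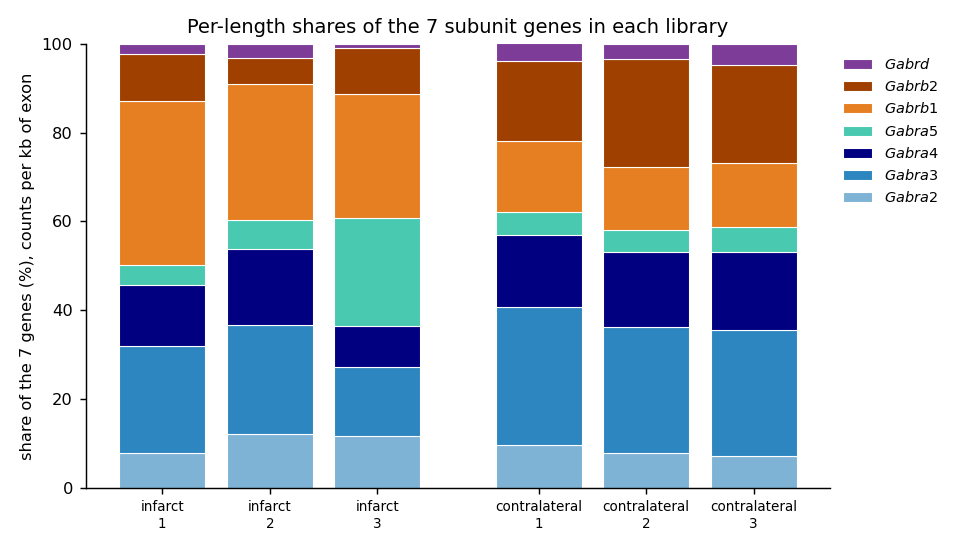
Share of each gene in the sum of the 7 subunit genes, in percent of counts per kilobase of exon, for each library. The *Gabrb1* band takes 28.1 to 37.0% of infarct bars and 14.2 to 16.1% of contralateral bars, the *Gabrb2* band takes 5.71 to 10.5% and 18.0 to 24.3%, and *Gabra5* takes 24.2% in infarct 3.

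Taking the beta genes alone, *Gabrb1* made up 77.9, 84.4, and 73.4% of the *Gabrb1* and *Gabrb2* sum in infarcts and 47.2, 36.9, and 39.9% in contralateral cortices. The means were 78.5% ± 5.54 (SD, n = 3) and 41.3% ± 5.33, so *Gabrb2* was the more abundant beta transcript of this pair per length in every contralateral library and the less abundant one in every infarct. Among the alpha genes, *Gabra3* made up 47.8, 40.8, and 25.5% of the 4-gene sum in infarcts and 50.1, 49.0, and 48.3% in contralateral cortices. *Gabra5* made up 9.11, 10.5, and 39.9% in infarcts and 8.24, 8.61, and 9.57% in contralateral cortices. The shares of both genes in infarcts 1 and 2 were thus closer to those of contralateral cortices than the shares in infarct 3 were.

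Count ratios within a library depend on neither depth nor scaling, and 21 pairs were compared. Libraries of the regions did not overlap for 13 of the 21 pairs. The pairs reuse the same genes, so they are not separate observations, and the share of such pairs among all tested genes was not computed. The exact two-sided permutation *p* was 0.1 for each of these, the smallest that 3 against 3 libraries allow, and 0.162 after Benjamini-Hochberg adjustment over the 21 pairs, so no pair passed 0.05. Over all 6 libraries, the log2 count ratio of *Gabrb1* to *Gabrb2* moved most. It was 0.96, 0.35, and 0.53 in contralateral cortices and 2.93, 3.55, and 2.58 in infarcts, a difference of 2.41. This first place depended on single libraries. Without infarct 1 the difference was 2.45, against 2.72 for *Gabra5* to *Gabrb2*. Without infarct 2 it was 2.15, against 2.47 for *Gabrb1* to *Gabrd*. The ratio of *Gabra5* to *Gabrb2* differed by 2.09, but by 1.51 without infarct 3 and by 2.72 without infarct 1, and that of *Gabrb1* to *Gabrd* differed by 2.08. The log2 ratio of *Gabra3* to *Gabrb1* differed by -1.57 and that of *Gabra4* to *Gabrb1*, its neighbor in the genome, by -1.45, both without overlap. Ratios varied more among infarcts than among contralateral cortices in 21 of 21 pairs, with a median SD of 0.76 against 0.23 on the log2 scale.

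**Figure D4:**
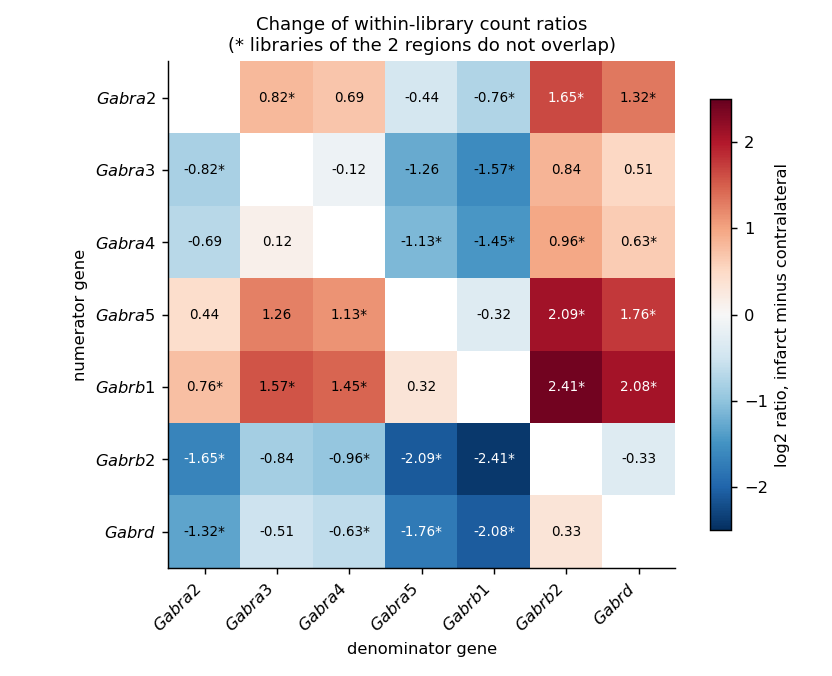
Difference between regions in the log2 count ratio of each pair of subunit genes (row over column, mean of 3 infarcts minus mean of 3 contralateral cortices). Asterisks mark pairs whose libraries do not overlap, and red means that the row gene held up better in infarcts. The *Gabrb1* row is red against every other gene and the strongest cell is *Gabrb1* over *Gabrb2* at 2.41. Against *Gabra5* the libraries overlap, and the difference for *Gabra5* over *Gabrb1*, -0.32, turns to 0.27 without infarct 1.

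To test single subunits against the group, the fit over all genes was repeated with each library scaled to the geometric mean of the 7 members, so that a log2 value of 0 means a change equal to theirs. Each member is part of this reference, so a high value of any member lowers the values of the others. On this scale 1 of the 7 was lower in infarcts, as were 0.379% of all tested genes, and 2 of the 7 were higher, as were 87.7% of all tested genes (adjusted *p* below 0.05, no fold threshold). The lower one was *Gabrb2* (-1.14, 95% interval -2.08 to -0.19, adjusted *p* = 0.0221, edgeR), which was not called when the median of the members replaced their mean (-0.74, adjusted *p* = 0.138, edgeR). The higher ones were *Gabrb1* (1.24, 95% interval 0.27 to 2.20, adjusted *p* = 0.0137, edgeR) and *Gabra5* (1.33, 95% interval 0.38 to 2.27, adjusted *p* = 0.00697, edgeR). *Gabra2* (0.48), *Gabra3* (-0.32), *Gabra4* (-0.19), and *Gabrd* (-0.77) did not pass, with 95% intervals that reach from -0.46 to 1.42, -1.26 to 0.61, -1.13 to 0.75, and -1.79 to 0.25. The *Gabra5* value rested on infarct 3, without which it was 0.18 (adjusted *p* = 0.624, edgeR). *Gabrb1* and *Gabrb2* kept their sign without any single library but lost their call without some of them. Without contralateral 1, 2, or 3 in turn, *Gabrb1* was 1.28, 1.22, and 1.21 (adjusted *p* = 0.0654, 0.0781, and 0.0819, edgeR) and *Gabrb2* was -1.25, -1.01, and -1.13 (adjusted *p* = 0.0525, 0.117, and 0.0779, edgeR). Without infarct 2, *Gabrb2* was -0.88 (adjusted *p* = 0.185, edgeR). With each member left out of its own reference, *Gabra5* was 1.62, *Gabrb1* was 1.44, and *Gabrb2* was -1.32, and 3 members were called. Standard errors on the scale of all 7 members were 0.48 to 0.52 for every member, against 0.21 to 0.96 in the comparison of regions. They were nearly alike although the members differed in spread, so a *p* value on this scale does not measure the spread of that gene alone.

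The members were also set against the pan-neuronal list. The geometric mean of their counts was 0.371, 0.413, and 0.404 times that of the 14 neuronal genes in infarcts and 0.373, 0.414, and 0.370 times in contralateral cortices (exact two-sided permutation *p* = 0.9, where 3 against 3 libraries cannot go below 0.1), and the regions overlapped. With libraries scaled to this list, 1 of the 7 was lower and 2 were higher, as were 0.386% and 88.3% of all tested genes. These were again *Gabrb2* (-1.12, adjusted *p* = 0.0175, edgeR), *Gabrb1* (1.27, adjusted *p* = 0.00795, edgeR), and *Gabra5* (1.38, adjusted *p* = 0.00295, edgeR). *Gabra5* without infarct 3 was 0.22 (adjusted *p* = 0.524, edgeR). Standard errors of the members were again nearly alike, at 0.45 to 0.50, so *p* values on this scale have the same limit. *Gabrb1* lost its call without contralateral 1 or 3 (1.29 and 1.21, adjusted *p* = 0.0514 and 0.0636, edgeR), and *Gabrb2* lost it without contralateral 2 or 3 or infarct 2 (-0.93, -1.15, and -0.88, adjusted *p* = 0.121, 0.0565, and 0.158, edgeR). Astrocytes are another cell type with GABA-A receptors. Of 9 astrocyte markers, 2 were lower and 2 higher, the median log2 fold change was -0.28, and the summed level was 5111.0 to 7206.9 CPM in infarcts, against 14217.6 to 15135.2 CPM in contralateral cortices, with none at 0. The glutamate transporter gene *Slc1a2* made up much of this sum. The other 8 markers together were higher in every infarct, at 2735.1 to 3285.1 CPM, than in any contralateral cortex, at 2111.7 to 2437.6 CPM. Most of that difference was *Aqp4*, at 899 to 1217.5 CPM in infarcts, against 319 to 327 CPM in contralateral cortices. Log2 fold changes were also above 0 for *Gjb6* (1.59), *Gja1* (0.59), and *Sox9* (0.64). They were below 0 for *Aldh1l1* (-0.49), *Slc1a3* (-0.37), *Fgfr3* (-1.19), and *Atp1b2* (-0.28). The part of astrocytes in the smaller change of *Gabrb1* was not tested.

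The other 12 GABA-A subunit genes of the genome add to this picture. Of these, 5 passed the count filter and all 5 were downregulated, with log2 fold changes from -3.92 to -2.13 and a median of -2.73. *Gabrg1*, a gamma subunit, had the smallest change (-2.13, adjusted *p* = 3.21e-05, edgeR), from 55.4 to 59.2 CPM in contralateral cortices to 9.40, 11.9, and 18.0 CPM in infarcts. *Gabrg3*, another gamma subunit, changed by -2.59 (adjusted *p* = 0.00134, edgeR). The 7 that did not pass the filter had at most 27 counts in any library. No member took the opposite direction from these genes.

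The GABA pathway apart from the members was read from lists of 68 genes, which include the 12 other subunit genes above. Of the 68, 58 passed the filter, 36 were downregulated, and 9 were upregulated. Over all tested genes, 20.9% were downregulated and 25.7% were upregulated. All 3 genes that make GABA and load it into vesicles were downregulated, namely *Gad1* (-2.91) and *Gad2* (-2.41), which make GABA, and *Slc32a1* (-2.22), which loads it into vesicles. Of 6 uptake and breakdown genes, 4 were downregulated, among them the astrocytic transporter *Slc6a11* (-2.14) and the breakdown enzyme gene *Aldh5a1* (-1.65), and 2 were upregulated, the transporter genes *Slc6a12* (1.68) and *Slc6a13* (1.50), which are known from meninges and vessels. Of 11 scaffold and adhesion genes of inhibitory synapses, 10 were downregulated, with a median log2 fold change of -2.48. *Gphn*, the gephyrin scaffold to which receptors are anchored, was at the edge of the threshold (-1.01, adjusted *p* = 0.00041, edgeR), whereas *Slitrk3*, an adhesion protein of inhibitory synapses, changed by -2.97. *Mdga1*, an inhibitor of neuroligin adhesion, was not called (0.13, adjusted *p* = 0.834, edgeR).

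Genes for receptor assembly and trafficking moved less. Of 13, 4 were downregulated and 2 upregulated, and the median log2 fold change was -0.56. The subunit transport gene *Hap1* (-2.41) and the vesicle fusion gene *Nsf* (-2.05) were lower, and *Gabarap* (1.30), which binds gamma subunits and also serves in autophagy, and the actin linker *Rdx* (1.46) were higher. Among the GABA-B receptor genes, *Gabbr1* (-2.46) and *Gabbr2* (-3.07), the receptor subunits, were among 4 of 5 downregulated genes, and the auxiliary subunit gene *Kctd12* (1.81) was upregulated. Of 6 chloride transport genes, 2 were downregulated and 2 upregulated. *Slc12a5*, the neuronal chloride extruder KCC2 that sets the direction of GABA-A currents, changed by -3.25, and the kinase gene *Wnk1* by 1.44. All 3 glycine receptor genes that passed the filter were downregulated, from *Glrb* (-1.48) to *Glra3* (-4.30). In the list of neurosteroid and benzodiazepine-site ligand genes, 1 of 6 was downregulated and 2 were upregulated, including *Dbi*, which encodes a peptide that binds the benzodiazepine site (28.5, 31.4, and 51.9 CPM in infarcts, against 7.23 to 11.5 CPM in contralateral cortices). For comparison, the median log2 fold change was -2.88 over 11 excitatory neuron markers and -2.45 over the 10 inhibitory neuron markers tested.

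**Figure D5:**
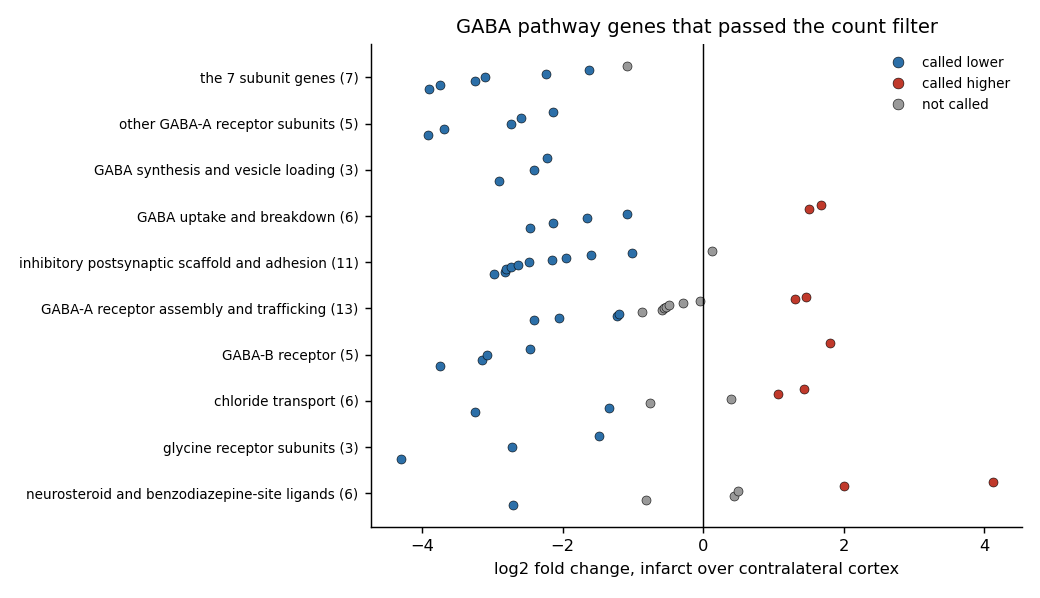
Log2 fold change, infarct over contralateral cortex, of each gene that passed the count filter, by list, with the number of genes in parentheses. Blue points were called lower, red points higher, and gray points were not called. Among the 7 subunit genes at the top, 6 are blue and the gray point is *Gabra5* at -1.09.

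The tested genes outside the 7 whose profiles lay closest to the mean profile of the members were also listed. They were picked as the closest of all tested genes. That they lay nearer to this mean than the members did follows from that choice and is not a result about the members. Likeness was measured as the root mean square difference between log2 CPM profiles over the 6 libraries, each centered on its own mean. *Krt222* (0.035), *Tmem151b* (0.041), *Nrxn3* (0.047), and *Enc1* (0.068) were among the 5 closest tested genes. The members lay between 0.261 for *Gabra4* and 0.869 for *Gabra5*. The profile of the closest gene, *Krt222*, averaged 8.18 CPM in infarcts, against 57.1 CPM in contralateral cortices.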

How the data were processed

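RNA-Seq counts of 3 infarct and 3 contralateral libraries were used. Per the study's methods and the submitters' processing notes, the authors demultiplexed reads with bcl2fastq 2.19, trimmed them with Trimmomatic 0.32, aligned them to GRCm38 with STAR 2.5.2b, and deposited raw counts per Ensembl gene from HTSeq. Its annotation and strand setting are not given in the sources used here, so reads shared by overlapping genes on opposite strands may not be separated. The 5 entries that name no gene (26.64 to 34.26% of each file's total) were left out. Of 46078 identifiers, 45143 matched GENCODE M21, which supplied symbols, positions, and exon lengths.

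Libraries were grouped by their labels. The main test was edgeR 4.0.16 in R 4.3.3 (filterByExpr, TMM, robust glmQLFit, glmQLFTest, region as the only term), with a biological coefficient of variation of 0.22 and Benjamini-Hochberg adjustment over all tested genes. The same fit was repeated with libraries scaled to the geometric mean of the 7 members or of 14 pan-neuronal genes, after adding 0.5 to counts. Ratios and shares were computed in Python 3.11.15 with pandas 2.3.3, tested with exact permutation tests in SciPy 1.17.1, and plotted with matplotlib 3.10.9. The edgeR script was tested on simulated data. Intervals of single libraries were not computed, and the 95% intervals given are those of the fits.

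The members, gene lists, and tests were chosen with earlier results of these data known. The text names the 7 members, genes of the pathway lists where a list is reported, marker genes of lists, and the genes closest to the mean profile of the members. Not every gene that this rule covers is named. *Gm9962*, and the genes named in the closing section, were chosen after their values were seen. Alternatives were DESeq2 1.42.0, limma voom (limma 3.58.1), other scalings, filters, references, pseudocounts, and lengths, thinning to equal depth, a replicate block, and leaving out each library.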

Additional observations from a re-analysis of the deposited data

How the results depend on the processing

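The count of 6 called members and the sign of each member's change between regions held under DESeq2, limma voom, other scalings and filters, thinning, and the replicate block, and without each library except infarct 3, which gave 7. Across these settings, the largest adjusted *p* of a called member was 0.0381 (*Gabra2*). Without 1 library in turn the count was thus 6 to 7, the count of called members on the scale of their own mean was 0 to 3, on the pan-neuronal scale 1 to 3, the count of pairs that did not overlap 13 to 16, and the count of shares that did not overlap 4 to 6. On the scale of their own mean, the count of 0 was reached without contralateral 1, where 3 members had an adjusted *p* of 0.0525 to 0.0654 in edgeR. Signs near 0 turned for *Gabra3* (0.01) and *Gabra4* (0.13) when the median replaced the mean of the members, which also ended the call of *Gabrb2* (-0.74, adjusted *p* = 0.138, edgeR) and left 2 called members, and for *Gabra4* without infarct 3, its values without 1 library in turn running from -0.36 to 0.01 and, on the pan-neuronal scale, from -0.37 to 0.03. The cause was not tested. With an excitatory neuron list in place of the pan-neuronal list, *Gabrd* passed as well (-1.03, adjusted *p* = 0.0157, edgeR). With the lengths of the longest transcripts, 3 shares did not overlap, as those of *Gabrd* then did. *Gabrb2* at 27.0% stood above *Gabra3* at 24.9% in contralateral cortices, so the order of levels depends on the transcripts counted. Library totals alone shifted the log2 fold change of the median gene by 0.20. Of 483 values recomputed, 453 were classed as unchanged, by a rule that differed between kinds of value. Fold changes had to keep their direction and their side of the threshold. Ratios and shares had to move by no more than the spread between libraries. Counts had to stay within a set ratio of the main count, so that 6 and 7 called members, or 4 and 6 shares, were classed as unchanged. *Gabra5* had no adjusted *p* in DESeq2 and was treated as not called there.

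Infarct and contralateral libraries share replicate numbers, but same-numbered libraries did not deviate together (correlations of -0.161, 0.0851, and -0.0112), so they gave no sign of pairing, and whether they came from the same mice is not known. They were not treated as pairs. With the replicate block, 6 members were called between regions, 2 on the scale of their own mean, where *Gabra5* was 0.91 (adjusted *p* = 0.0808, edgeR), and 3 on the pan-neuronal scale. With 3 libraries per region, no permutation test could pass 0.05, and the low counts of *Gabrd* in infarcts limit its precision.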

Other observations

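Apart from *Gabra5*, 12 tested genes had a larger excess in infarct 3 over infarcts 1 and 2, and those named here were chosen after their values were seen. *Fibcd1*, known as a marker of CA1 pyramidal neurons of the hippocampus, measured 0.239, 0.587, and 68.7 CPM in infarcts, against 7.36 to 8.77 CPM in contralateral cortices. *Neurod6*, a transcription factor gene of excitatory neurons of cortex and hippocampus, measured 1.83, 4.33, and 41.7 CPM in infarcts, against 35.6 to 41.7 CPM in contralateral cortices. *Cabp7*, a calcium-binding protein gene, measured 3.35, 4.41, and 73.6 CPM and 15.2 to 18.4 CPM. *Fibcd1* and *Cabp7* in infarct 3 were thus far above every other library. *Gabra5* in infarct 3, at 44.8 CPM, was only slightly above contralateral 3, at 42.7 CPM. *Neurod6* was level with the highest contralateral cortex. *Cpne6*, also among the 12, stood at 42.0 CPM in infarct 3, within its contralateral range of 39.9 to 56.8 CPM. *Ighg1*, an immunoglobulin constant gene of plasma cells, was also among the 12, at 7.25, 6.17, and 174 CPM in infarcts, against 0.0 to 1.57 CPM in contralateral cortices.

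Summed over genes, the 7 members reached 1563.2 to 1652.6 CPM in contralateral cortices and the 12 other GABA-A subunit genes 2768.9 to 3711.4 CPM. In infarcts the sums were 196, 244, and 457 CPM for the members and 183, 193, and 455 CPM for the others. The members thus took the smaller part of the counts in every contralateral library and slightly the larger part in every infarct, without a test.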
